A study of Mus musculus with 10 samples.

Results

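Macrophage identity genes and markers of the resident macrophages of the joint were followed in the synovium of arthritic mice with and without maslinic acid, a triterpene from olives. The set held 10 genes, chosen by name and each represented by 1 probe set, out of 18128 genes with a probe set of their own and 39993 probe sets in all. It comprised 3 genes of macrophages in general (Csf1r, Adgre1 and Cd68), 3 of the lining macrophages (Cx3cr1, Trem2 and Vsig4) and 4 of the resident macrophages below the lining (Mrc1, Cd163, Lyve1 and Folr2). All 10 were measured, by 15 probe sets that name the gene alone. The probe set with the highest mean over the 10 arrays stood for each gene.

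The mice were male DBA/1J animals, bought at 5 weeks of age and labelled as 8 weeks old. All of them had collagen antibody-induced arthritis, brought about by injecting 1 mg of an antibody against type II collagen on day 8, then lipopolysaccharide (25 µg, day 11). Tissue was taken on day 12. Vehicle mice (5, given as CAIA by the titles) were given corn oil, and treated mice (5, CAIA+MA) were given maslinic acid suspended in corn oil at 200 mg per kg of body weight each day. Every mouse gave 1 Affymetrix array, with RNA from hind leg synovium (left side) cleaned of muscle and skin. The 5 mice per group were picked out of larger groups by a criterion that the submitters' text does not give. Mice without arthritis were not analysed here, so the values say nothing of what arthritis itself did to these genes.

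Macrophages of the joint fall into populations with different positions. Cells that carry the fractalkine receptor CX3CR1 and the lipid receptor TREM2 form a thin sheet in the synovial lining and shield the joint space. Other resident macrophages lie in the tissue below, often along vessels, and carry scavenger receptors such as CD163 and the mannose receptor MRC1. During arthritis blood monocytes that depend on the chemokine receptor CCR2 enter the tissue and become further macrophages. Resident macrophages largely depend on signals through the CSF1 receptor, encoded by Csf1r, to live.

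The deposited value of a probe set looks like a log2 intensity, but arrays differ very little from one another. Over the 10 arrays, SDs of probe sets had a median of 6.68 millionths of the deposited unit, and the scale of a difference is unknown. Values per array are therefore given as the deviation from the gene's mean over the 10 arrays, in millionths of the deposited unit. Group differences are given as Hedges' g. It is the treated mean less the vehicle mean, divided by the SD within groups (5 arrays each), and has a 95% interval. A g is not a fold change, and levels of different probe sets were not set against each other. Vehicle replicates 3 and 5 stood apart from the rest, since limma gave them array weights of 0.458 and 0.339 and weighted the remaining arrays 0.857 to 2.01. Values without them are given for the results that they move most. The table gives no detection calls, so whether the markers of synovium or of macrophages were above background could not be judged.

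No member passed the test. With limma on all 10 arrays, 0 of 10 members had an adjusted p under 0.05, and 0% of all probe sets did (the lowest was 0.148). Cx3cr1 was the 1 member with an unadjusted p under 0.05, against 8.83% of all genes in either direction and 4.54% with a lower mean. Thus 1 in 10 is close to the background. Means were higher with maslinic acid in 7 members and lower in 3, against 47.9% of all genes with a higher mean, and the median g of the members was 0.20 against 0 over all genes. The groups overlapped in all 10 members, and they did not overlap in 1.38% of all genes. In bulk tissue, fewer cells of a type and less RNA per cell cannot be told apart.

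**Figure D1:**
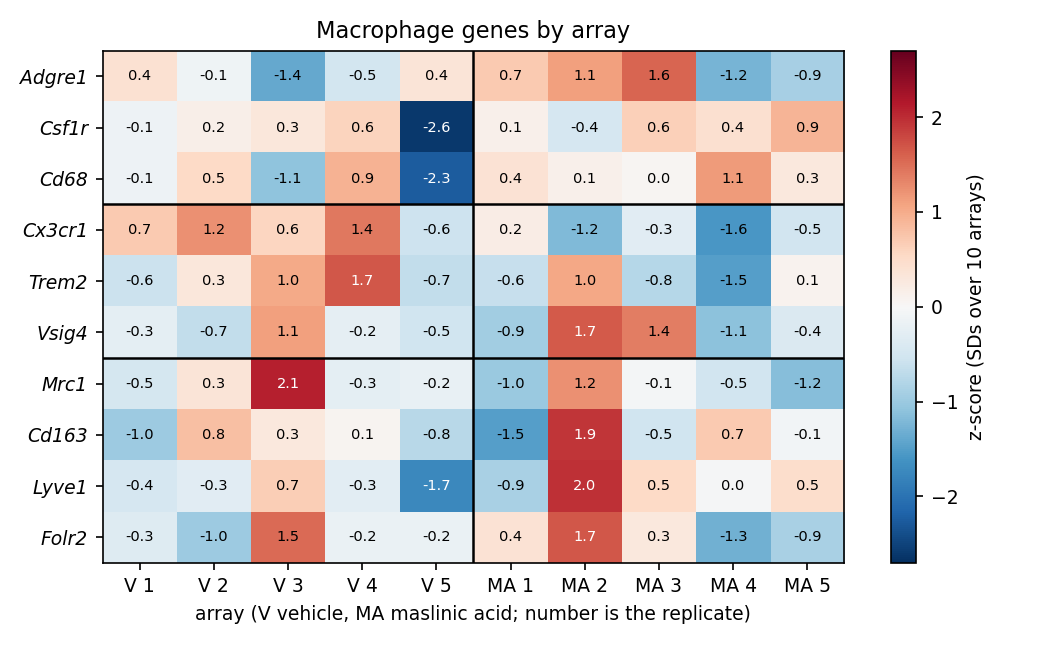
Value of each of the 10 genes on each array as a z-score, the deviation from the gene's mean in SDs over the 10 arrays, with general, lining and sublining genes separated by lines. Vehicle replicate 5 is lowest for Csf1r, Cd68 and Lyve1, and maslinic acid replicate 2 is highest for 4 of the 7 resident genes.

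The 3 general macrophage genes had higher means with maslinic acid, none past the test. Csf1r encodes the receptor for the growth factors CSF1 and IL-34. Its deviations were -51, 62, 116, 222 and -979 in vehicle replicates 1 to 5 and 55, -168, 238, 158 and 347 in maslinic acid replicates 1 to 5. Vehicle replicate 5 lay far below every other array, and the groups overlapped among the remaining 9 arrays. The g was 0.61 (95% interval -0.56 to 1.75, adjusted p = 0.744 in limma, exact permutation p = 0.357), and it was 0.21 without vehicle replicate 5. The other probe sets of Csf1r, with g of 0.59 and 0.62, also had vehicle replicate 5 lowest, at -1015 and -1715. After quantile normalization those 2 probe sets were at -0.80 and -0.27, and the first at 0.25.

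Cd68 encodes a lysosomal glycoprotein of phagocytes, also called macrosialin. Its deviations were -84, 334, -681, 586 and -1411 in vehicle mice and 249, 91, 28, 714 and 174 in maslinic acid mice. The treated arrays lay close together, all above the vehicle median, while vehicle replicates 3 and 5 were the 2 lowest of all. The SD was 806 millionths in vehicle and 272 with maslinic acid. A larger SD in vehicle was found for 5 of the 10 members and for 81.7% of the 6743 genes with 10 distinct values. The g of 0.75 (-0.44 to 1.91, adjusted p = 0.686, exact permutation p = 0.246) became -0.08 without vehicle replicates 3 and 5.

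Adgre1 encodes an adhesion receptor, the surface antigen by which mouse macrophages are usually recognised. Its deviations were 1242, -361, -4250, -1511 and 1091 in vehicle mice and 2165, 3411, 4833, -3837 and -2782 in maslinic acid mice. Of the treated arrays 3 lay above every vehicle array and the others below 4 of the 5 vehicle arrays. The g was 0.43 (-0.72 to 1.56, adjusted p = 0.820, exact permutation p = 0.460). It was 0.15 without treated replicate 3, 0.86 without treated replicate 4 and 0.15 with array weights. Adgre1 did not vary with the other general genes. Over the 10 arrays its Pearson correlation was -0.28 with Csf1r and -0.11 with Cd68, while Csf1r and Cd68 correlated at 0.78 (Spearman 0.43). Without the 2 arrays farthest from the Csf1r median that 0.78 was 0.23.

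Among the lining genes Cx3cr1 had the lowest unadjusted p of the 10 members, with a lower mean in treated mice, and Trem2 had a lower mean as well. The bases before the start of both genes and of Cd68 are shown because these represent the lining genes with lower means and the general gene with the highest g. They are the 250 bases before each RefSeq gene start (GRCm38.p6), 5′ to 3′ on the gene's strand, with capitals on the letters GAGGAA, the core of sites for the macrophage factor PU.1, and TGANTCA, the AP-1 site, on either strand.
Cx3cr1, chr9:120068297-120068546, minus strand: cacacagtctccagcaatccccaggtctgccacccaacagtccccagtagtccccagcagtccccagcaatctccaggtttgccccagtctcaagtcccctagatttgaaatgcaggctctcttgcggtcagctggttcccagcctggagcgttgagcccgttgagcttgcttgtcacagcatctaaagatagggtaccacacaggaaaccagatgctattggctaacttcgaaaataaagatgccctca
Trem2, chr17:48346151-48346400, plus strand: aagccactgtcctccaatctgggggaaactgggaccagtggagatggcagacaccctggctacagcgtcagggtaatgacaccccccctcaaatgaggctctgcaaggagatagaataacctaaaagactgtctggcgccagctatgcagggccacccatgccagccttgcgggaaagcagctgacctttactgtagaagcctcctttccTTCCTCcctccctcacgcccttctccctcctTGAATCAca
Cd68, chr11:69666171-69666420, minus strand: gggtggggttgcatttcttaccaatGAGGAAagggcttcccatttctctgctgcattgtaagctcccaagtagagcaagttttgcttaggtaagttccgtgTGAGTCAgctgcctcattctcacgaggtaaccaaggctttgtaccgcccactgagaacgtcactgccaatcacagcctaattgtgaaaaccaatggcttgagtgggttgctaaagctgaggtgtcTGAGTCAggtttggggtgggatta

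Promoters of 7 of the 10 members were in the table. GAGGAA or its reverse complement was found in 4 of these 7 genes (Mrc1, Cd68, Trem2 and Vsig4), and in 23.3% of all 32851 promoter stretches of this length. TGANTCA was found in 3 of the 7 (Cd68, Trem2 and 1 of the 2 Folr2 starts) against 6.75% of all. TGCTGAC, letters of sites for MAF factors, which is in 3.81% of all, and TATAAA, the TATA box, in 12.4%, were in none of the 7. Cx3cr1 held none of the 4 sets of letters in this stretch. The motifs did not overlap one another, and a match of letters is a description, not a binding site.

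Cx3cr1 encodes the receptor for fractalkine, the membrane-bound chemokine CX3CL1. Its deviations were 53, 93, 43, 107 and -41 in vehicle mice and 16, -88, -23, -117 and -38 in maslinic acid mice. All 5 treated arrays lay below the vehicle median and 2 below every vehicle array. The overlap came from vehicle replicate 5, since the other 4 vehicle arrays lay above all treated ones. The difference of -101 millionths gave a g of -1.65 (-2.98 to -0.24, adjusted p = 0.488 in limma, exact permutation p = 0.0317 unadjusted), and the exact Wilcoxon test gave p = 0.0556.

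A second probe set of Cx3cr1, with a lower mean, read 18, 24, -3, 55 and 1 in vehicle mice and -13, -19, -3, -39 and -23 in maslinic acid mice. No treated array exceeded the lowest vehicle array, with a tie at -3. Its g was -1.84 (-3.24 to -0.38, adjusted p = 0.483, exact permutation p = 0.0159 unadjusted). Both probe sets read the same RNA, so they are not independent samples. Without vehicle replicate 5 the groups of the first probe set no longer overlapped and g was -2.46, and without vehicle replicates 3 and 5 it was -2.54. After quantile normalization, which itself moved the median g of all genes to -0.27, the g values were -0.45 and -0.38. With arrays centred on their medians the first probe set gave -1.61 and the second -0.97.

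Trem2 encodes a lipid-binding receptor that signals through the adaptor TYROBP. Its deviations were -22, 12, 40, 66 and -26 in vehicle mice and -24, 41, -30, -58 and 4 in maslinic acid mice. The groups overlapped widely, with 2 treated arrays below every vehicle array and treated replicate 2 above 4 of the 5 vehicle arrays. The g was -0.64 (-1.78 to 0.54, adjusted p = 0.733, exact permutation p = 0.254). A second probe set, with 5 distinct values over the arrays and thus close to the rounding of 6 decimals, gave -0.92 (-2.10 to 0.31), and 0.57 after quantile normalization.

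Vsig4 encodes the complement receptor CRIg, which binds fragments of C3. Its deviations were -327, -857, 1421, -304 and -685 in vehicle mice and -1210, 2119, 1761, -1415 and -499 in maslinic acid mice. Vehicle replicate 3 and treated replicates 2 and 3 were high, and the other 7 arrays low. The g was 0.20 (-0.93 to 1.32, adjusted p = 0.924, exact permutation p = 0.833), and it was -0.14 without treated replicate 2 and -0.07 without treated replicate 3. The 3 lining genes were thus not alike, with a median g of -0.64. That median was -1.14 when only probe sets above the median level were kept, which left Vsig4 out.

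**Figure D2:**
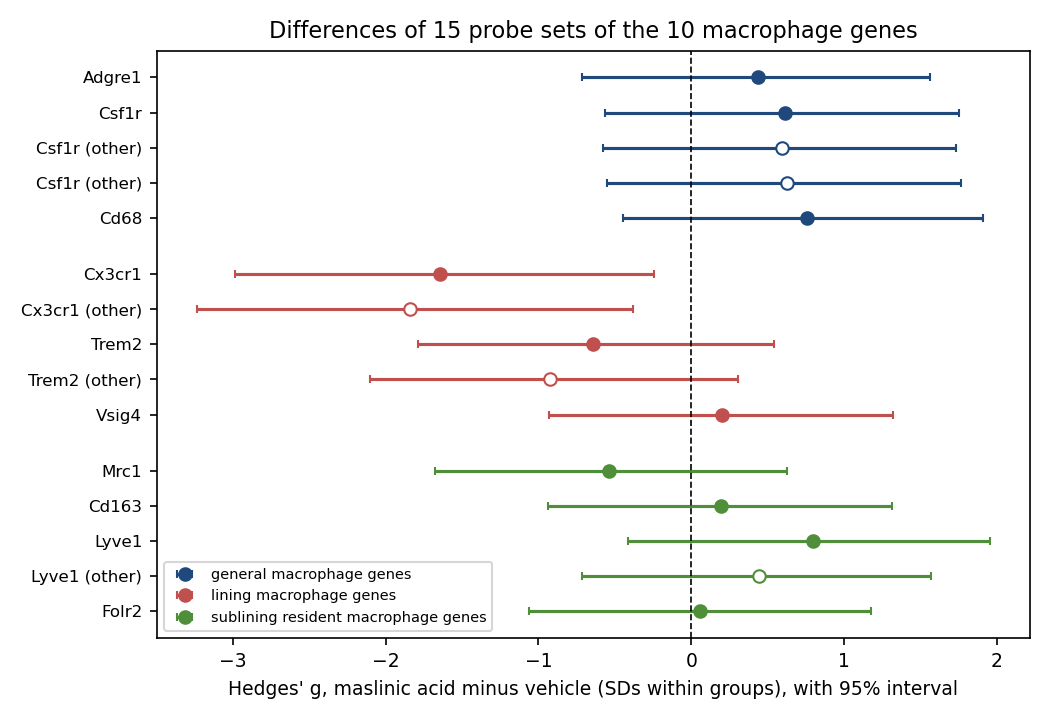
Hedges' g (maslinic acid minus vehicle, in SDs within groups) of the 15 probe sets of the 10 genes with 95% intervals, filled for the probe set that stands for the gene and open for the others. Both probe sets of Cx3cr1 have intervals below 0 before any adjustment for multiple tests, and all other intervals include 0.

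The 4 sublining genes showed no common direction between the groups. Mrc1, the mannose receptor CD206, had deviations of -610, 441, 2725, -355 and -252 in vehicle mice and -1303, 1593, -72, -673 and -1498 in maslinic acid mice. Vehicle replicate 3 was the highest array and treated replicate 2 the next. The g was -0.54 (-1.67 to 0.62, adjusted p = 0.778, exact permutation p = 0.413), and it was -0.18 without vehicle replicate 3 and -1.02 without treated replicate 2.

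Cd163 encodes the scavenger receptor that takes up complexes of haemoglobin and haptoglobin. Its deviations were -3563, 2913, 1064, 276 and -2726 in vehicle mice and -5378, 7006, -1941, 2586 and -235 in maslinic acid mice. The highest and the lowest array were both treated mice, and the vehicle arrays lay between them. The g was 0.19 (-0.94 to 1.31, adjusted p = 0.926, exact permutation p = 0.754), and -0.25 without treated replicate 2.

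Lyve1 encodes a hyaluronan receptor of perivascular macrophages and of lymphatic vessels. Its deviations were -207, -145, 315, -129 and -811 in vehicle mice and -407, 921, 253, -10 and 219 in maslinic acid mice. Of the treated arrays 4 lay above the vehicle median. The g was 0.79 (-0.41 to 1.95, adjusted p = 0.675, exact permutation p = 0.206), the highest of the 10 members, and it was 0.20 after quantile normalization. A second probe set gave 0.44 (-0.71 to 1.57), and -0.22 with each array centred on its median. Of 5 lymphatic endothelial markers measured out of 6, 4 had higher means (median g = 0.16), with Flt4 at 0.76, Reln at 0.75, Prox1 at 0.16, Pdpn at 0.068 and Mmrn1 at -0.82. There were 2 higher without vehicle replicates 3 and 5. Their mean z-score ran from -0.56 to 0.79 in vehicle mice and from -0.24 to 0.30 in treated mice. The part of lymphatic vessels in the Lyve1 values was not tested.

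Folr2 encodes folate receptor beta. Its deviations were -238, -673, 1040, -129 and -116 in vehicle mice and 261, 1149, 198, -893 and -595 in maslinic acid mice. Vehicle replicate 3 and treated replicate 2 were again the highest arrays. The g was 0.059 (-1.06 to 1.18, adjusted p = 0.991, exact permutation p = 0.913), and its sign changed with the setting.

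Several resident genes varied together from mouse to mouse. The 6 pairs of sublining genes all correlated positively over the 10 arrays (median Pearson r = 0.54, from 0.20 to 0.72), with a median of 0.69 for deviations from the group means and 0.63 without vehicle replicates 3 and 5. Vsig4 correlated with Folr2 at 0.80, with Lyve1 at 0.75 and with Mrc1 at 0.70 (Spearman 0.65, 0.67 and 0.60). Without the 2 arrays farthest from the Vsig4 median these values were 0.77, 0.49 and 0.81. Several sublining pairs rested on 2 arrays, since Mrc1 with Folr2 went from 0.72 to -0.06 and Mrc1 with Lyve1 from 0.52 to -0.11 without the 2 arrays farthest from the Mrc1 median. Cx3cr1 stood apart, with r from -0.29 to 0.09 to the 4 sublining genes and 0.50 to Trem2, which was -0.058 without the 2 arrays farthest from the Cx3cr1 median. Between general and sublining genes the median r was -0.02 over 12 pairs. These correlations describe 10 arrays that share their RNA preparation and array for both genes, and they were not tested.

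The 7 resident members set against the 3 general members gave a lower balance in treated than in vehicle mice on average, with wide overlap. The median g was 0.059 over the 7 resident genes and 0.61 over the 3 general genes, a difference of -0.55. Per array, the mean z-score of resident genes minus that of general genes was 0.42 ± 0.88 in vehicle mice (SD, n = 5, from -0.38 to 1.76) and -0.42 ± 0.78 in maslinic acid mice (SD, n = 5, from -1.04 to 0.92). Vehicle replicate 3 was highest and treated replicate 2 next, and each group had arrays on both sides of 0. Without vehicle replicates 3 and 5 the difference of the medians was -0.13, with a median g of 0.24 for the general genes, and without treated replicate 2 it was -1.09. The contrast rests on these 3 general genes and did not extend to others. Another 15 general macrophage genes, described below, had a median g of -0.02, with 7 higher. The further sublining genes were at -0.35 and the further lining genes at 0.58. No score over the members was tested, because the members were chosen with results of these data known.

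**Figure D3:**
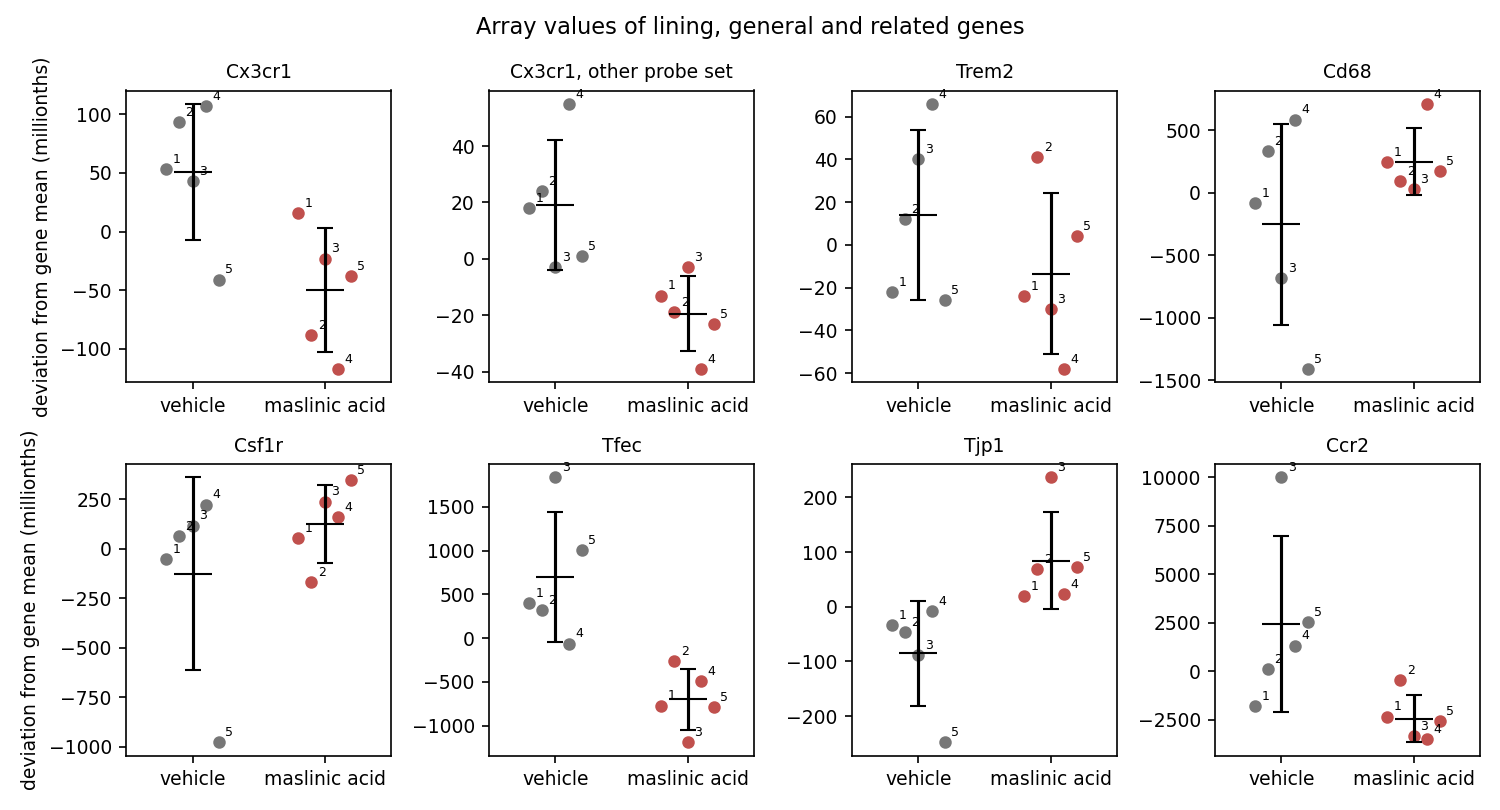
Deviation of each array from the gene's mean, in millionths of the deposited unit, for Cx3cr1 (2 probe sets), Trem2, Cd68, Csf1r and for Tfec, Tjp1 and Ccr2. Small numbers give the replicate, and bars show the mean and the SD of 5 arrays. Vehicle replicate 5 is the lowest vehicle array of Cd68, Csf1r and the first Cx3cr1 probe set, replicate 3 is the lowest of the second, and the groups do not overlap for Tfec and Tjp1.

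Genes that act with the members were read from 9 lists with 90 measured genes. Of these, 43 had a higher mean, 0 passed the adjusted test and 9 had an unadjusted p under 0.05 (4 higher, 5 lower), which is 10.0% against 8.83% over all genes. The groups did not overlap in 2 of 90, Tfec and Tjp1, against 1.38% of all genes. The genes named below are the 2 of lowest p in each list, with some others named after their values were seen.

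Ligands of the member receptors went both ways, and none passed the test. Csf1, the main ligand of CSF1R, had a g of 0.79 (-0.41 to 1.96), and its deviations ran from -692 to 286 in vehicle mice and from -70 to 390 in treated mice. Its g was 0.048 without vehicle replicates 3 and 5 and 0.11 after quantile normalization. Il34, the other ligand, was at 0.66. Cx3cl1, the ligand of CX3CR1, was at -1.08 (-2.29 to 0.18), but it took 4 distinct values and its deviations ran from -2 to 1, so rounding limits it. The Cx3cl1 probe set with the most distinct values gave -0.19, and the mean of its probe sets gave -0.29. Of the 6 genes of growth factors, their receptors and fractalkine 3 had higher means (median g = -0.06), and none reached an unadjusted p under 0.05.

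Tyrobp, the adaptor through which TREM2 signals in myeloid cells, had a lower mean, as Trem2 had. Its deviations were -82, 82, 393, -80 and 236 in vehicle mice and -153, 11, -132, -193 and -82 in maslinic acid mice. Vehicle replicates 3 and 5 were the highest, and treated arrays lay low but within the vehicle range apart from 3 that were lower. The g was -1.27 (-2.52 to 0.03, adjusted p = 0.552, exact permutation p = 0.0556). Genes that rise in lipid-laden TREM2 macrophages went the other way in the mean, with 8 of 9 higher (median g = 0.72). They included Lpl, lipoprotein lipase (0.98, -0.26 to 2.16), and Abca1, a cholesterol exporter (0.95, -0.29 to 2.13, and 0.15 with arrays centred on their medians). That direction was weak in other settings, with 5 of 9 higher and a median of 0.09 without vehicle replicates 3 and 5, and 3 higher and 2 lower with a median of 0.06 after quantile normalization. Markers of adipocytes (3 of 3, median g = 0.99), muscle (7 of 7, 0.50) and osteoclasts (8 of 9, 1.03) also had higher means. The part of these cells in the values of this list was not tested.

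Further general macrophage genes went both ways, with 7 of 15 higher (median g = -0.02). Mertk, a receptor for the uptake of dying cells, had a g of 1.31 (-0.01 to 2.57, adjusted p = 0.548, exact permutation p = 0.0556). Centring of arrays on their medians gave 0.45, quantile normalization 0.12 and the values without treated replicate 1 gave 2.34. The C1q genes C1qa, C1qb and C1qc were at 0.25, 0.33 and 0.07, and Lyz2, lysozyme of myeloid cells, was at -0.95. Without vehicle replicates 3 and 5, 1 of 15 had a higher mean (median g = -0.54).

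Transcription factors of the lineage included the gene with the lowest p of the 9 lists. Tfec, a factor of the MITF family found mainly in macrophages, had deviations of 401, 319, 1838, -63 and 1002 in vehicle mice and -770, -261, -1191, -487 and -786 in maslinic acid mice. Every treated array lay below every vehicle array. The g was -2.18 (-3.68 to -0.61, adjusted p = 0.455, exact permutation p = 0.00794, the smallest that 5 against 5 can give). It stayed between -2.66 and -1.49 in 21 alternative settings. Its relative Mitf was at 1.15, Spi1, which encodes PU.1, at -1.04, and Id3, an inhibitor of DNA binding, at 1.30 (-0.02 to 2.55). Id3 was at 0.47 with arrays centred on their medians and at 2.63 without vehicle replicate 2. Of 11 factors 6 had higher means (median g = 0.33), and 4 after quantile normalization (-0.36).

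Other genes described in lining macrophages went both ways. Of 8, 5 had higher means (median g = 0.58) and 3 lower. Lower means were found for Cldn5 at -0.58, Cd9 at -0.55 and Timd4 at -0.29. Higher ones included Mfge8 at 1.26 and Axl at 0.65, which both serve the uptake of dying cells. Tjp1 encodes the tight-junction protein ZO-1, which endothelial and epithelial cells also make. Its deviations were -33, -46, -89, -8 and -248 in vehicle mice and 20, 69, 237, 23 and 73 in maslinic acid mice, with no overlap. Its g was 1.65 (0.25 to 2.99, adjusted p = 0.488, exact permutation p = 0.00794, the smallest possible), and 0.26 after quantile normalization. Fat4, a large cadherin, was at 1.61 (0.22 to 2.95, adjusted p = 0.488, exact permutation p = 0.0317), at 0.70 with arrays centred on their medians and at 0.17 after quantile normalization. That normalization left 4 genes of the list higher and 3 lower, with a median of 0.007. Of 7 blood endothelial markers 6 had higher means (median g = 0.33), but 2 without vehicle replicates 3 and 5 and 3 after quantile normalization or centring of arrays on their medians. Their mean z-score ran from -1.53 to 0.70 in vehicle mice and from -0.03 to 0.63 in treated mice, and the part of endothelium in Tjp1 was not tested. Synovial fibroblast markers had higher means in 8 of 9 (median g = 0.47), and in 5 of 9 without vehicle replicates 3 and 5 (0.26). The part of fibroblasts in the values of this list was not tested.

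Further sublining genes had lower means in 8 of 12 (median g = -0.35, and -0.003 without vehicle replicates 3 and 5). Cd209d, a lectin of tissue macrophages, was at -1.04 (-2.24 to 0.22), Retnla, which encodes the secreted protein RELM-alpha, at -0.74, and Stab1, a scavenger receptor, at 0.80 (-0.41 to 1.96), which was 0.083 after quantile normalization. None reached an unadjusted p under 0.05.

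Genes of recruited monocytes had lower means with maslinic acid in 7 of 8 (median g = -0.68), against 8750 of 18128 over all genes. An unadjusted p under 0.05 in limma was found for 2 of 8, against 8.83% of all genes in either direction and 4.54% with a lower mean. With so few genes, 2 is a small count. Ccr2, the receptor that brings monocytes from the blood, had deviations of -1803, 128, 9996, 1319 and 2550 in vehicle mice and -2331, -445, -3355, -3510 and -2546 in maslinic acid mice. Vehicle replicate 3 was far above the rest, and 4 of the 5 treated arrays lay below every vehicle array. The g was -1.33 (-2.59 to -0.01, adjusted p = 0.540, exact permutation p = 0.0159). Plac8 was at -1.43 (-2.72 to -0.09, adjusted p = 0.516, exact permutation p = 0.0476), and at -0.58 with arrays centred on their medians. The direction was the same in 8 of 8 without vehicle replicates 3 and 5 (median g = -0.43). Over all genes, 9388 of 18128 were lower in that setting. With arrays centred on their medians 8 of 8 were lower (-0.62), but so were 15420 of 18128 genes (-0.39). After quantile normalization 6 were lower and 0 higher, against 10508 lower and 5312 higher over all genes. Cx3cr1 is also made by blood monocytes and natural killer cells, and of 4 natural killer cell markers measured out of 5, 2 had lower means (median g = -0.04), and 4 had without vehicle replicates 3 and 5 (-0.34). Mean z-scores of the recruited monocyte genes ran from -0.44 to 0.92 in vehicle mice and from -0.73 to 0.16 in treated mice, and of the natural killer markers from -0.89 to 1.29 and from -1.37 to 0.81. The part of both cell types in the Cx3cr1 values was not tested.

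Inflammatory macrophage genes had lower means in 10 of 13 (median g = -0.45), with Il1b at -0.60, Tnf at -0.45 and Il6 at -0.48. Cd80, a costimulatory ligand for T cells, was at -2.35 (-3.90 to -0.72, adjusted p = 0.467, exact permutation p = 0.0159), although it took 6 distinct values from -2 to 3 millionths and was at 0.18 after quantile normalization. Cxcl10, an interferon-induced chemokine, was at 0.93 (-0.30 to 2.11), at 0.44 without vehicle replicates 3 and 5 and at 1.96 without treated replicate 2. Neutrophil markers also had lower means, in 8 of 9 (median g = -0.57). The part of neutrophils in the inflammatory and recruited monocyte lists was not tested.

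**Figure D4:**
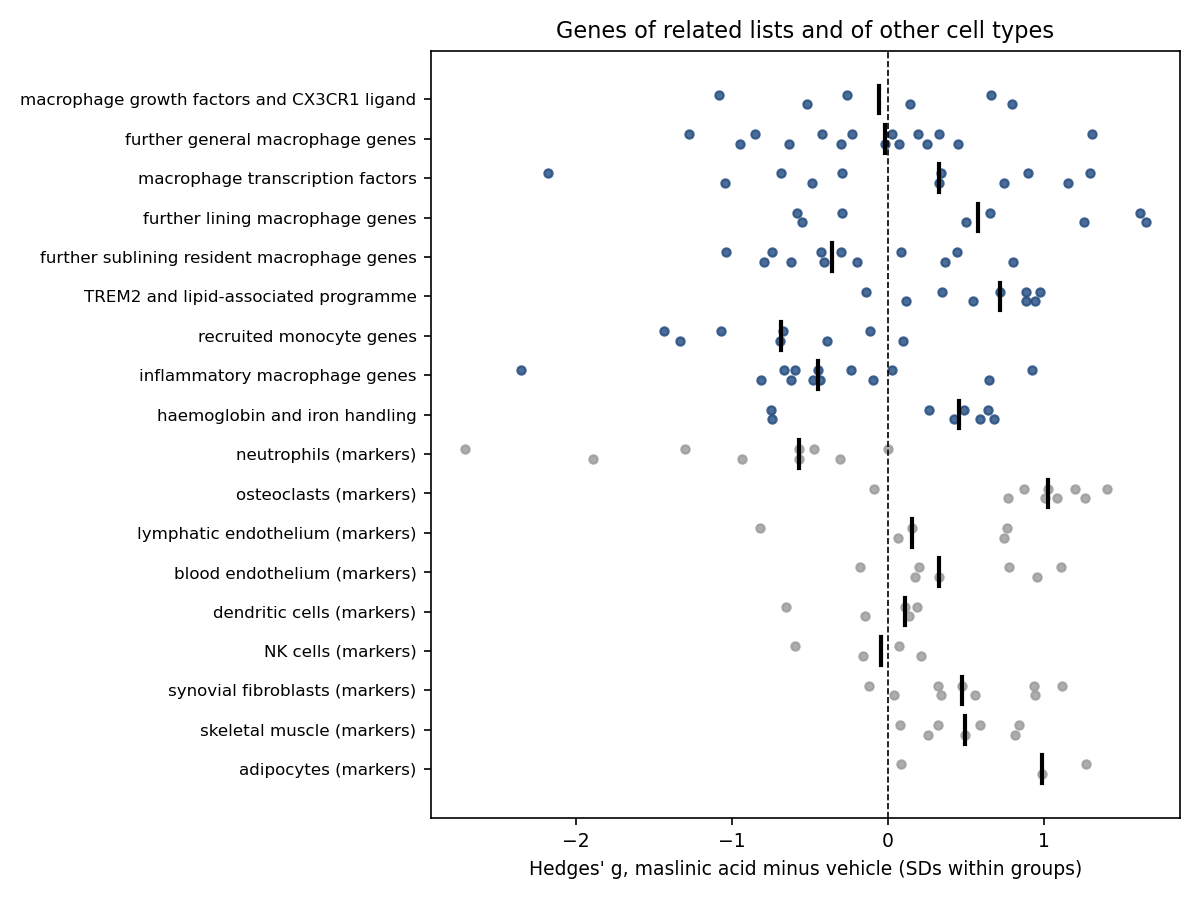
Hedges' g of every measured gene of the related lists (blue) and of marker lists of other cell types (grey), with a black bar at each median. Recruited monocyte, inflammatory and neutrophil genes lie mostly below 0, and osteoclast genes mostly above.

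Markers of other cells also differed in mean between the groups, and none passed the adjusted test. Of 9 neutrophil markers measured out of 11, 8 had lower means (median g = -0.57), of which S100a8 and S100a9 took 2 distinct values. An unadjusted p under 0.05 was found for 3 of 9, against 8.83% of all genes. After quantile normalization 3 were lower and 1 higher, and without vehicle replicates 3 and 5 the median was -1.06. Their mean z-score ran from -0.11 to 1.19 in vehicle mice and from -0.62 to -0.12 in treated mice. Osteoclasts arise from the same precursors and also make Csf1r and Cd68. Of 9 osteoclast markers 8 had higher means (median g = 1.03), and 9 without vehicle replicates 3 and 5 (0.54). They had a mean z-score from -1.26 to 0.47 in vehicle mice, lowest in replicate 5, and from -0.17 to 1.06 in treated mice. Their part in the Csf1r and Cd68 values was not tested. Synovial fibroblast markers had higher means in 8 of 9 (median g = 0.47), and in 5 of 9 without vehicle replicates 3 and 5 (0.26). Higher means were found for muscle markers in 7 of 7 (0.50) and adipocyte markers in 3 of 3 (0.99). Dendritic cell markers were higher in 3 of 5 (0.11), in 1 after quantile normalization and in 0 after centring, which moved the median g of all genes to -0.39.

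For each member the 2 genes with the most similar pattern were sought among the 6742 other genes with 10 distinct values, by Pearson correlation over the 10 arrays. Csf1r was closest to Fam234a (0.98) and Cd109 (0.96), and Cd68 to Tbc1d22a (0.96) and Atg2b (0.96). For Cd68 the values were 0.78 and 0.84 without vehicle replicates 3 and 5. Adgre1 was closest to Slamf9 and Medag (both 0.93). Cx3cr1 was closest to Arpc4 (0.91) and Prr11 (0.85), which were at 0.90 and 0.86 without those 2 arrays, and Trem2 to Gpr183 (0.87) and Nqo2 (0.86). Vsig4 was closest to Rnd2 (0.94) and Camk2n1 (0.93), Mrc1 to Pkib (0.94) and 5530601H04Rik (0.94), and Cd163 to Chn1 (0.91) and Igfbp2 (0.85). Lyve1 was closest to Tmem218 (0.95) and Pla2g5 (0.94), and Folr2 to Apoc1 and E130114P18Rik (both 0.88). No member was among the closest genes of another. They were picked as the highest of all 6742 and describe these arrays.

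**Figure D5:**
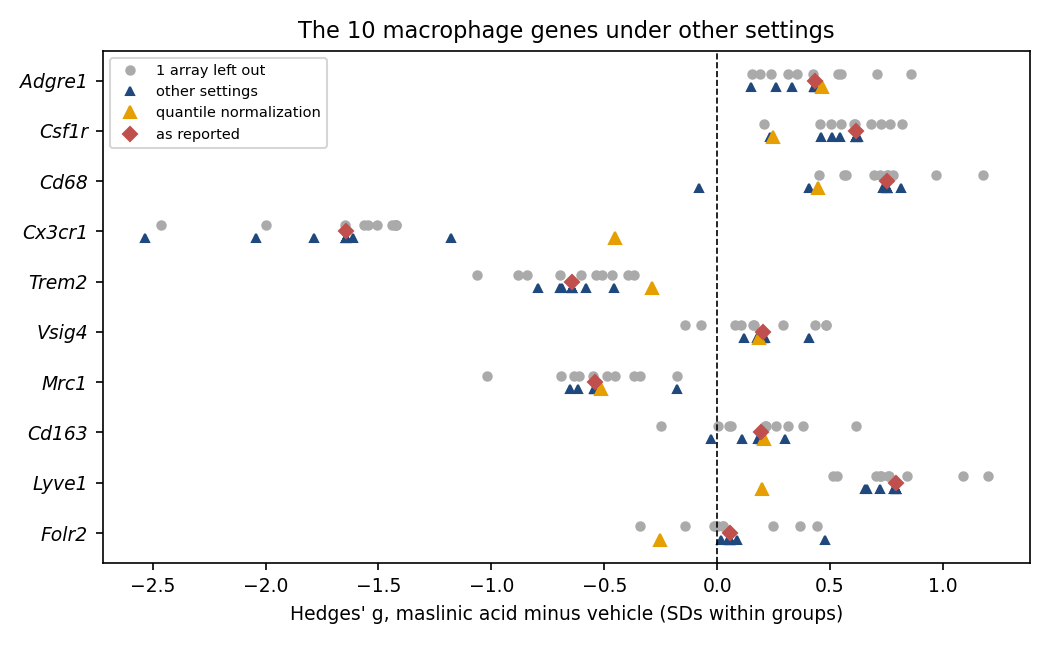
Hedges' g of the 10 genes as reported (diamonds), with 1 array left out (grey circles) and under the other settings (triangles, orange for quantile normalization). Cx3cr1, Trem2 and Mrc1 stay below 0 and Adgre1, Csf1r and Lyve1 above 0 in every setting shown, while Cd68, Vsig4, Cd163 and Folr2 cross 0 in at least 1.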

How the data were processed

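Total RNA of the synovium (100 ng) was labelled and hybridised to Affymetrix arrays, 1 per mouse. Group and replicate number come from the titles, and the labels give no batch. The deposited value is called a score, because its scale and the authors' background correction, normalization and summary were not given in the sources used here. R 3.2.1 is named per the submitters' processing notes. Of 39993 probe sets 34202 named 1 gene in the platform annotation, 931 named more than 1 and stood for no gene, and 4860 had no name here.

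Scores were tested as they stand by limma 3.58.1 under R 4.3.3 (lmFit, eBayes), two-sided, all 10 arrays, no covariate, Benjamini-Hochberg over all probe sets, threshold 0.05. Exact permutation tests were two-sided over all 252 assignments of 10 arrays to 5 and 5. Intervals of g come from the noncentral t distribution. Arrays are labelled as biological replicates. Their number limits the precision. The scripts were tested on simulated data. Named genes were the members, the 2 of lowest p per related list and the 2 most similar genes per member. Some other genes of the related and marker lists were named after their values were seen. The members and lists were chosen with earlier results of these data known. Alternatives were a replicate block, quantile normalization, array weights, centring of arrays, a robust or trended eBayes, filters on level and on distinct values, other probe set choices, the Wilcoxon test, each array left out and vehicle replicates 3 and 5 left out. Sequences are from RefSeq (GRCm38.p6), matched by symbol. Python 3.11.15 with pandas 2.3.3, scipy 1.17.1 and matplotlib 3.10.9 made tables and figures.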

Additional observations from a re-analysis of the deposited data

Results flagged for a closer look

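In 6 of 56 groups of 5 arrays, over the members and the named related genes, 1 array lay apart from the others by more than 0.71 of the group's range. Chance gives about 1 in 20 groups. Among the members, vehicle replicate 5 was apart for Csf1r (its gap to the next array was 0.773 of the range, on the low side), and vehicle replicate 3 for Vsig4 (0.757, high). Among the related genes, vehicle replicate 3 was apart for Slc40a1, the iron exporter ferroportin (0.835, high). Treated replicate 3 was apart for Tjp1 (0.756, high) and Plac8 (0.73, low), and treated replicate 2 for Blvra, biliverdin reductase A (0.713, high).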

How the results depend on the processing

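No member passed the adjusted threshold in any of the 21 settings, of which 20 held Vsig4. The median g of resident less general members stayed below 0 in each (-1.09 to -0.13). Further general macrophage genes were not part of that contrast. With quantile normalization 8 probe sets passed over the whole table and 0 members had an unadjusted p under 0.05; the cause was not tested. With the replicate block, too, 0 members did, and Cx3cr1 had g = -1.18. Titles share replicate numbers, but the labels do not say that these pair the mice. Deviations of same-numbered arrays correlated from -0.39 to 0.35, and 2 of 5 vehicle arrays were closest to their own number. So few arrays cannot settle whether mice were paired. Leaving out single arrays gave 0 to 1 probe sets past the threshold, 0 to 1 members without overlap and 4 to 7 members with a higher mean. The 1 probe set passed when maslinic acid replicate 1 was left out, and 4 higher members came when maslinic acid replicate 2 was. Cx3cr1 was the 1 member without overlap, when vehicle replicate 5 was left out. Leaving out vehicle replicates 3 and 5 also gave 1 member without overlap, and Cd68 turned to -0.081. The sign turned for Folr2 (-0.25) and Cd80 (0.18) with quantile normalization and for Cd163 (-0.029) with array weights. Without single arrays Folr2 ran from -0.34 to 0.44, Cd163 from -0.25 to 0.61 and Vsig4 from -0.14 to 0.48. Cx3cr1, by its first probe set or the mean of its probe sets, kept its direction in 21 of 21 settings, with an unadjusted p under 0.05 in 19. Few distinct values limit S100a8 and S100a9 (2 each), Cx3cl1 (4), Prox1 and the second Trem2 probe set (5 each) and Cd80 (6). Others also took fewer than 10, among them Tyrobp, Plac8, Stab1 and the second probe sets of Cx3cr1 and Lyve1 (9 each).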

Other observations

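Genes of haemoglobin and iron handling, the task of CD163, had higher means with maslinic acid in 6 of 8 (median g = 0.46), and none reached an unadjusted p under 0.05. Hmox1, haem oxygenase 1, had a g of 0.68 and Hp, haptoglobin, one of 0.64. Slc40a1 was at -0.75 (95% interval -1.91 to 0.45) and Blvra at -0.74 (-1.90 to 0.45). Without vehicle replicates 3 and 5, 2 of 8 had a higher mean (median g = -0.21).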
